A study of Arabidopsis thaliana with 6 samples.

Results

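Sugar carriers move sucrose and hexoses across plant membranes, and the 10 genes described here code for 5 sucrose-proton symporters (SUC1, SUC2, SUC3, SUC4 and SUC5), 4 SWEET facilitators (SWEET2, SWEET11, SWEET12 and SWEET15) and the hexose-proton symporter STP1 of Arabidopsis thaliana. They were taken by locus identifier from tables of 32884 rows, and all 10 were present. Transcript levels came from RNA sequencing of whole imbibed seeds, with 3 libraries of hda15-1, in which the gene of the histone deacetylase HDA15 is mutated in ecotype Col-0, and 3 libraries of wild-type Col-0. Seeds of both genotypes took up water for 1 h, were given far-red light at 3.82 µmol per square metre per second for 5 min and stayed in darkness at 22 °C for 12 h. Plants had grown in long days, and dry seeds had been stored for about a month. The labels do not state the lesion in hda15-1 or whether replicate libraries were made from seed lots harvested separately. The genes were selected on their names, with the FPKM differences between hda15-1 and Col-0 in these same libraries already known. Differences between hda15-1 and Col-0 in the 10 genes are therefore given as a description, without p-values.

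Symporters of the SUC family and of the STP family carry their sugar into the cytosol together with a proton, and so depend on the proton gradient across the membrane in which they sit. SWEET proteins need no gradient and let sugar pass down its concentration difference. In a germinating seed, sucrose and hexoses released from stored reserves feed the growing embryo axis, and the carriers set which cells export and which take up that sugar.

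Values are FPKM, read fragments corrected for transcript length and for library size, so levels can be compared between genes as well as between libraries. FPKM summed to 879239 to 1159516 per hda15-1 library and 912906 to 1033701 per Col-0 library, and relative depth ranged from 0.92 to 1.23 with Col-0 replicate 1 set to 1. Read totals are unknown, but in a 1 kb transcript a single read amounted to an estimated 0.0899 to 0.119 FPKM. HDA15 was at 0.338, 0.651 and 0.417 FPKM in hda15-1 and at 16.1, 12.97 and 14.8 FPKM in Col-0 (adjusted p = 3.79e-04, limma). All 8 seed markers averaged above 1 FPKM, with summed levels of 55185 to 71679 FPKM in hda15-1 and 49552 to 60568 FPKM in Col-0, although CRU3 was listed at 0 in hda15-1 replicate 2 and Col-0 replicate 3. The 4 seed coat markers BAN, TT10, TT12 and TT2 were each listed at 0 in at least 4 libraries, while the 5 endosperm markers were above 0 in all 6. The 2 libraries numbered 1 had the lowest median correlations with the other 5, at r = 0.953 for hda15-1 and 0.955 for Col-0 across the 15045 genes tested. The rest were only slightly higher, at 0.958 to 0.965. Genes are not independent replicates. Values with and without those 2 libraries are given for the genes that differed most.

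SUC1, SUC2 and STP1 were higher in every hda15-1 library than in any Col-0 library. SUC3 and SUC4 overlapped between the genotypes, and SUC5 and the 4 SWEET genes were near or at 0 or overlapped. Of the 10 genes, 4 (SUC2, SUC3, SUC4 and STP1) averaged 1 FPKM or more across all libraries, the minimum set for testing, and 6 were below it. None of the 4 was among the genes that passed an adjusted p of 0.05 in limma, which were 0.219% of the 15045 genes tested and 0.199% on the higher side. Groups of SUC2 and STP1 did not overlap, and the same held, with hda15-1 higher, for 5.78% of all genes tested. With no filter on the mean, SUC1 was among the genes that passed on the higher side, 0.102% of 21626. It no longer passed when hda15-1 replicate 2 or any Col-0 replicate was left out, nor in some other settings given below. In that wider set 5.83% of genes were higher in hda15-1 without overlap. The contrast was known when the 10 genes were chosen, so nothing is read from these counts.

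**Figure D1:**
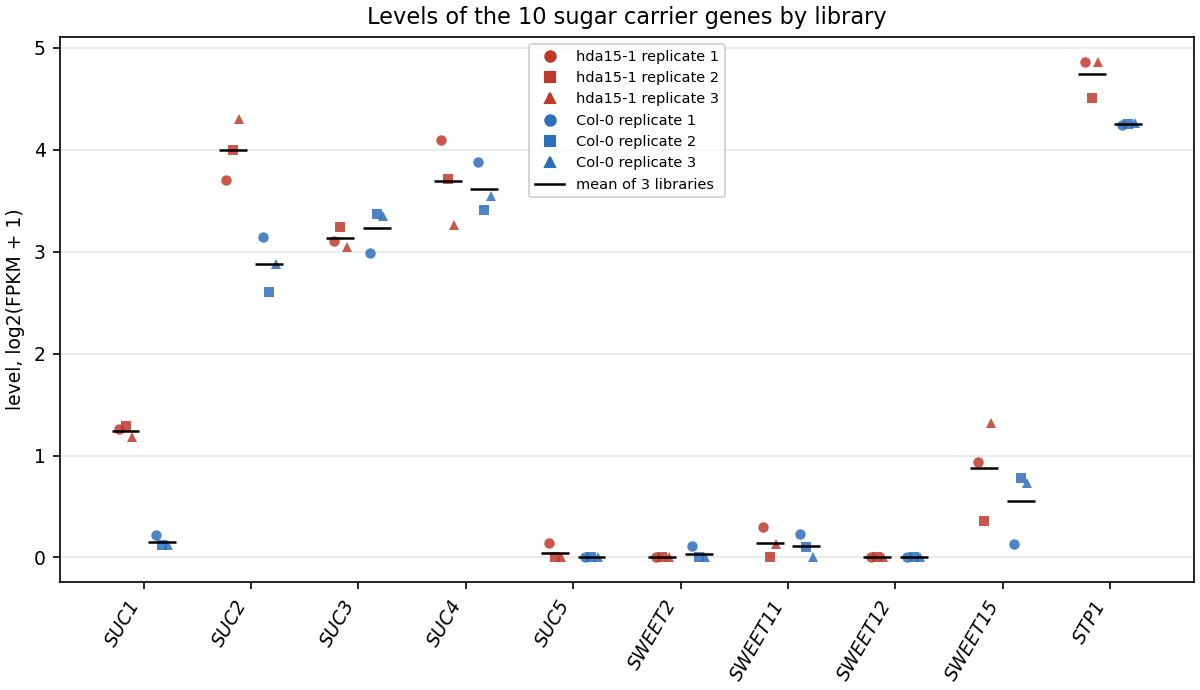
Levels of the 10 sugar carrier genes as log2(FPKM + 1), with hda15-1 libraries in red to the left of Col-0 libraries in blue for each gene, marker shape giving the replicate and black lines the mean of 3 libraries. SUC1, SUC2 and STP1 have red points above all blue points, SUC3, SUC4 and SWEET15 overlap, and SUC5, SWEET2, SWEET11 and SWEET12 lie near 0.

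SUC2 is the symporter that loads sucrose into phloem companion cells, and it had the largest difference between genotypes of the 4 genes above the minimum level. SUC2 (AT1G22710, chromosome 1 from 8030587 to 8033156 on the minus strand, TAIR10.1, with 4 exons) was at 12.0, 14.95 and 18.7 FPKM in hda15-1 and at 7.84, 5.07 and 6.34 FPKM in Col-0. The lowest hda15-1 library thus lay above the highest Col-0 library, and both were libraries numbered 1. Means were 15.2 ± 3.33 FPKM in hda15-1 and 6.42 ± 1.39 FPKM in Col-0 (SD, n = 3 each), a ratio of 2.37. On the log2(FPKM + 1) scale, which understates changes of low genes, the difference was 1.13 ± 0.22 (SE from limma). Libraries numbered 2 and 3 alone gave 1.41, and the pair numbered 1 gave 0.56. Here and below, that pair is 1 library of each genotype, so its difference has no replication, and the number was not taken to match them. With each library left out in turn the SUC2 difference stayed between 0.98 and 1.27.

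SUC1, known from pollen, roots and seedlings, was close to the detection limit in wild-type seeds and low in the mutant. SUC1 (AT1G71880, chromosome 1 from 27054030 to 27056464 on the plus strand, TAIR10.1, with 3 exons) was at 1.39, 1.45 and 1.27 FPKM in hda15-1 and at 0.166, 0.0896 and 0.0882 FPKM in Col-0. These levels correspond to an estimated 23.6 to 34.1 reads per hda15-1 library and 2.1 to 3.2 reads per Col-0 library. The 3 hda15-1 libraries lay close together and far above the 3 Col-0 libraries. Group means were 1.37 ± 0.0901 FPKM in hda15-1 and 0.115 ± 0.0447 FPKM in Col-0 (SD, n = 3 each), a ratio of 11.9 whose denominator rests on very few reads. The log2(FPKM + 1) difference was 1.09 ± 0.09 (SE, limma with no filter on the mean), 1.11 without the pair numbered 1 and 1.03 in that pair. Because SUC1 is low, the size depends on the pseudocount, with 1.60 at a pseudocount of 0.5 and 2.79 at 0.1.

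SUC5 (AT1G71890), a symporter known from the endosperm of developing seeds, lies beside SUC1 on the same strand, from 27058381 to 27060786, with 1916 bases and no annotated gene between them. It was listed at 0.102 FPKM in hda15-1 replicate 1 and at 0 in the other 5 libraries. The coding sequences of SUC1 and SUC5 were 84.3% identical over 1533 aligned bases, and those of SUC1 and SUC2 were 76.8% identical. No stretch of 50 bases in the exons of either SUC1 or SUC5 occurred again in the nuclear genome. At 36 bases, 0.428% of stretches in SUC1 and 0.569% in SUC5 did so. Reads placed with mismatches are not covered by this count, and the share of reads assigned to the wrong gene was not tested.

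The starts of SUC1, SUC2 and SUC5 share a G-box, the element CACGTG that phytochrome-interacting factors such as PIF1, named in the series title, are known to bind. The sequences of SUC1, SUC2, SUC5 and STP1 are shown because SUC1, SUC2 and STP1 were higher in hda15-1 and SUC5 is the neighbour of SUC1 that was not detected in most libraries. Each runs 5′ to 3′ from 250 bases before to 50 bases after the annotated gene start in the RefSeq annotation of TAIR10.1, at chr1:27053780-27054079 (plus strand), chr1:8033107-8033406 (minus strand), chr1:27058131-27058430 (plus strand) and chr1:3776986-3777285 (plus strand). Capitals mark the G-box and the sugar-repressive element TTATCC or its reverse complement GGATAA.
SUC1: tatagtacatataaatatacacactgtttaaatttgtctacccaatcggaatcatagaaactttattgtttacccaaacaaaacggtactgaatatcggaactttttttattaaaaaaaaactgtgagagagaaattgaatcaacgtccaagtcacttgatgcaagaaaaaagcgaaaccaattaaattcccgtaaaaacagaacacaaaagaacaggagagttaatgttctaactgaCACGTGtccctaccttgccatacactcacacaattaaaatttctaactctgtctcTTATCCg
SUC2: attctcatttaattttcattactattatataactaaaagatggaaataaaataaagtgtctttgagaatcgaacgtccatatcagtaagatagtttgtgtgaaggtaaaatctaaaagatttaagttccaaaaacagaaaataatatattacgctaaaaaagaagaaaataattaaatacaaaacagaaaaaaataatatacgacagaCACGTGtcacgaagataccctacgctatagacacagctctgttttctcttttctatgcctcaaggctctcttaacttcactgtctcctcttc
SUC5: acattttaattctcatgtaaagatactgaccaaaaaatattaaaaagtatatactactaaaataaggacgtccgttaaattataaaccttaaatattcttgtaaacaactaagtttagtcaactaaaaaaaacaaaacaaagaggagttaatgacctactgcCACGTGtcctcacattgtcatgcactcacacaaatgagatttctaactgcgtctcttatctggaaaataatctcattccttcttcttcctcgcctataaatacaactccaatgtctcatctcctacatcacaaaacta
STP1: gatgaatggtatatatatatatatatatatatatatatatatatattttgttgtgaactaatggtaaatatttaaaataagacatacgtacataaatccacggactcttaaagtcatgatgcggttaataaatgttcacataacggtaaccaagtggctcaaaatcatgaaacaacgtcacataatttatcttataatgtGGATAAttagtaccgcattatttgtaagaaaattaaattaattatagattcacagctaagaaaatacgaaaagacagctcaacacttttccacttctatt

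The G-box began 12 bases before the start of SUC1, 42 before that of SUC2 and 88 before that of SUC5, and was found in none of the other 7 genes. Of 27443 promoters of protein-coding genes cut to the same 300 bases, 7.7% held it. The sugar-repressive element, searched on both strands, lay in SUC1, SUC4 and STP1 and in 14.8% of all promoters. The PBE-box CACATG or CATGTG, another element bound by these factors, was in none of the 10 windows and in 12.9% of all promoters. The gibberellin-response core TAACAA or TTGTTA was in the windows of SUC3, SWEET11 and SWEET12 and in 34.6% of all promoters. The abscisic acid response core ACGTG or CACGT, which every G-box contains, was otherwise in SWEET15 alone among the 10, and in 26.7% of all promoters. SUC1 and SUC2 held a G-box and were higher in hda15-1, as was STP1, which held none. SUC5 held a G-box and was listed at 0 in 5 libraries. Any part of the G-box in these differences was not tested. Such matches are descriptions of letters in the windows, not binding sites.

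SUC3 and SUC4 carried most of the sucrose symporter transcript in wild-type seeds and overlapped between genotypes. SUC4 (AT1G09960, chromosome 1 from 3243986 to 3247216 on the plus strand, annotated as SUT4), a symporter of the vacuolar membrane, was at 16.0, 12.1 and 8.62 FPKM in hda15-1 and at 13.7, 9.60 and 10.7 FPKM in Col-0. Both the highest and the lowest of the 6 libraries were hda15-1 libraries. SUC3 (AT2G02860, chromosome 2 from 828279 to 832619 on the minus strand, annotated as SUT2), which differs from its relatives by a longer central loop and 14 exons, was at 7.58, 8.44 and 7.26 FPKM in hda15-1 and at 6.91, 9.32 and 9.19 FPKM in Col-0. Again the groups overlapped. The log2(FPKM + 1) difference was 0.08 ± 0.24 for SUC4 and -0.10 ± 0.18 for SUC3 (SE from limma), and leaving out single libraries moved SUC4 between -0.12 and 0.29.

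Summed over the 9 genes of the SUC family, symporter transcript was at 37.2, 37.0 and 35.8 FPKM in hda15-1 and at 28.6, 24.1 and 26.3 FPKM in Col-0, again without overlap. SUC2 made up 32.4%, 40.5% and 52.1% of that sum in hda15-1 and 27.4%, 21.1% and 24.1% in Col-0. The share of SUC1 was 3.73 ± 0.186% in hda15-1 and 0.430 ± 0.133% in Col-0 (SD, n = 3 each). SUC4 had the largest share of the family in each Col-0 library and in hda15-1 replicate 1, and SUC2 in hda15-1 replicates 2 and 3. SUC6, SUC7, SUC8 and SUC9, the remaining genes of the family, were listed at 0 in all 6 libraries except for SUC6 at 0.0528 FPKM in hda15-1 replicate 1.

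**Figure D2:**
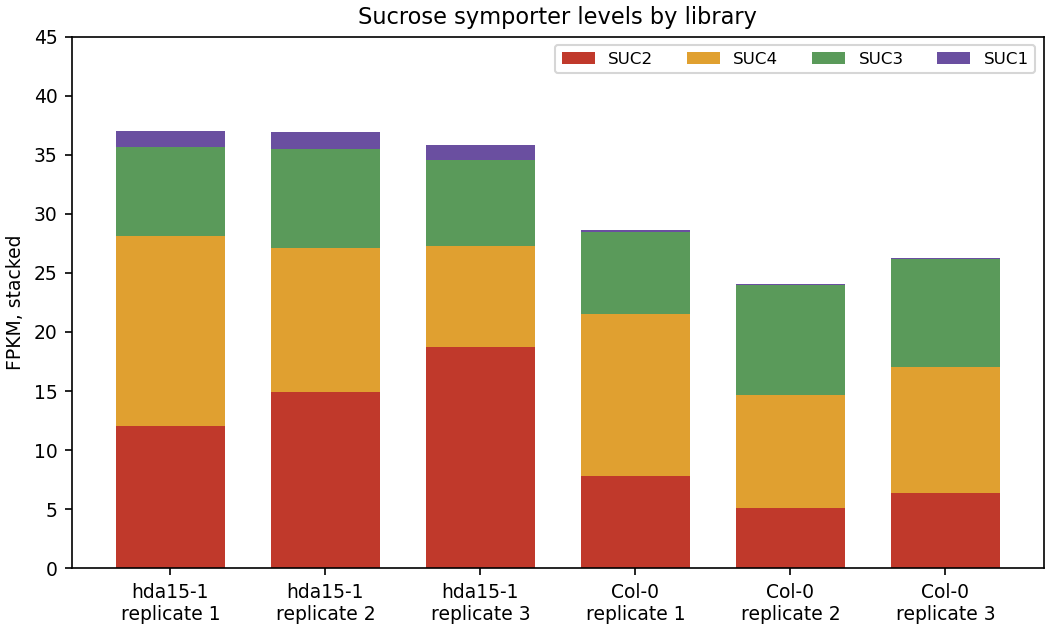
Stacked FPKM of SUC2, SUC4, SUC3 and SUC1 in each library, hda15-1 on the left and Col-0 on the right. All 9 SUC genes together summed to 35.8 to 37.2 FPKM in hda15-1 and 24.1 to 28.6 FPKM in Col-0, and those at or near 0 are not drawn. The SUC2 part is taller in each hda15-1 bar than in any Col-0 bar.

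SUC2 and the proton pump gene AHA3 are both known as companion cell genes, so the list of 8 phloem markers was set beside SUC2. AHA3 was at 15.6, 16.4 and 15.5 FPKM in hda15-1 and at 6.39, 7.94 and 6.35 FPKM in Col-0. Its groups did not overlap and its log2(FPKM + 1) difference was 1.10 ± 0.16 (SE), but its adjusted p of 0.0607 in limma did not pass the threshold. Summed phloem markers were at 22.7 to 25.2 FPKM in hda15-1 and 14.02 to 16.2 FPKM in Col-0. Without AHA3 the other 7 summed to 7.13 to 8.83 FPKM in hda15-1 and 7.38 to 9.81 FPKM in Col-0. Only 2 of these 7, BRX and APL, averaged at least 1 FPKM, so these sums say little about the rest. BRX was at 2.44, 5.10 and 5.08 FPKM in hda15-1 and 6.11, 3.73 and 3.77 FPKM in Col-0. APL, a factor that sets phloem identity, was at 3.29, 2.49 and 2.67 FPKM in hda15-1 and 2.05, 2.82 and 3.13 FPKM in Col-0. SEOR1, a protein of sieve elements, stayed below 1 FPKM in all 6 libraries, and PP2-A1, a phloem lectin, was listed at 0 in 5 of them. In whole seeds, fewer cells of a type and less RNA per cell cannot be told apart. Among the 5 endosperm markers, the expansin gene EXPA2 was at 156.3, 163.7 and 247.4 FPKM in hda15-1 and at 78.6, 17.2 and 19.9 FPKM in Col-0. Its groups did not overlap, with an adjusted p of 0.223 in limma, while those of EPR1, MAN5, MAN6 and MAN7 overlapped. Summed, the 5 were at 7572 to 11450 FPKM in hda15-1 and 6682 to 10888 FPKM in Col-0. Nearly all of this sum was EPR1, at 11272, 8653 and 7286 FPKM in hda15-1 and 9641.5, 6644 and 10848 FPKM in Col-0. The overlap of the sums is therefore that of EPR1, and says little about EXPA2, MAN5, MAN6 or MAN7. The part of phloem or endosperm cells in the differences of SUC2, SUC1 and STP1 was not tested.

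STP1, the main hexose-proton symporter of seedlings and guard cells, had the highest level of the 10 genes in both genotypes. STP1 (AT1G11260, chromosome 1 from 3777236 to 3780823 on the plus strand, TAIR10.1, with 4 exons) was at 28.1, 21.8 and 28.0 FPKM in hda15-1 and at 18.0, 18.0 and 18.2 FPKM in Col-0. The Col-0 libraries lay within a narrow band below all 3 hda15-1 libraries. Means were 26.0 ± 3.63 FPKM in hda15-1 and 18.1 ± 0.155 FPKM in Col-0 (SD, n = 3 each), a ratio of 1.44. The log2(FPKM + 1) difference was 0.49 ± 0.17 (SE from limma), with 0.43 without the pair numbered 1, 0.62 in that pair and 0.40 once the FPKM sums were made equal. STP1 shares 312 exonic bases with AT1G11270 on the opposite strand, and it is not stated whether reads were counted by strand. AT1G11270 was at 4.04, 3.73 and 4.70 FPKM in hda15-1 and 3.54, 4.92 and 3.26 FPKM in Col-0, so its groups overlapped. At 50 bases, 0.525% of stretches in the exons of STP1 occurred again in the genome.

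The 4 SWEET genes among the 10 were low or absent in both genotypes. SWEET15 (AT5G13170, chromosome 5 from 4181042 to 4183354 on the minus strand, annotated as SAG29), which exports sucrose from the seed coat and endosperm of developing seeds, was at 0.919, 0.285 and 1.49 FPKM in hda15-1 and at 0.0974, 0.718 and 0.663 FPKM in Col-0. Its libraries spread widely in both genotypes and overlapped, with a log2(FPKM + 1) difference of 0.32 ± 0.28 (SE) that was 0.08 without the pair numbered 1 and 0.81 in that pair. SWEET11 (AT3G48740), a sucrose exporter of leaf phloem and seed coat, was at 0.227, 0 and 0.0954 FPKM in hda15-1 and at 0.175, 0.0724 and 0 FPKM in Col-0. SWEET12 (AT5G23660), its close relative with 82.6% identity of coding bases, was listed at 0 in all 6 libraries. SWEET2 (AT3G14770), a carrier of the vacuolar membrane in roots, was listed at 0.0824 FPKM in Col-0 replicate 1 and at 0 in the other 5. No fold is given for SUC5, SWEET2 or SWEET12, and none of these differences could be detected at this depth.

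Ordered by mean FPKM, the genes took different places in the 2 genotypes for SUC2 and for the weakly expressed genes. In hda15-1 the order was STP1, SUC2, SUC4, SUC3, SUC1 and SWEET15, with overlapping library ranges for SUC2 and SUC4 and for SUC1 and SWEET15. In Col-0 it was STP1, SUC4, SUC3, SUC2, SWEET15 and SUC1, with overlapping ranges for SUC3 and SUC2 and for SWEET15 and SUC1. The other 4 genes followed at means of up to 0.107 FPKM in hda15-1 and up to 0.0826 FPKM in Col-0, and their ranges overlapped one another. In hda15-1 the range of SWEET15 lay above that of SWEET11, whereas in Col-0 the ranges of SUC1 and SWEET11 overlapped.

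**Figure D3:**
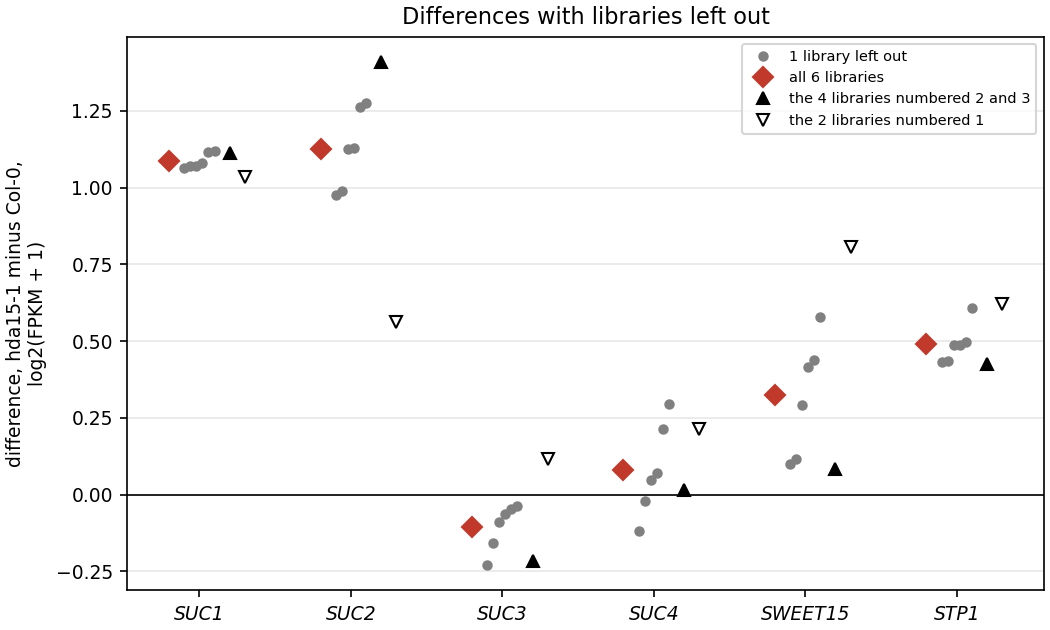
Difference of log2(FPKM + 1), hda15-1 minus Col-0, for 6 genes with all 6 libraries (red diamonds), with 1 library left out (grey points), from replicates 2 and 3 (filled triangles) and from replicate 1 of each genotype (open triangles). SUC1 stays between 1.03 and 1.12 and STP1 between 0.43 and 0.62, SUC2 ranges from 0.56 to 1.41, and SUC3 and SUC4 lie on both sides of 0.

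Other members of the 3 families were set beside these genes from full family lists, which were also drawn up with earlier results of these libraries known. SWEET transcript came almost wholly from SWEET1 and SWEET6. SWEET1, a hexose carrier of the plasma membrane, was at 138.1, 111.6 and 129.4 FPKM in hda15-1 and at 114.1, 109.6 and 119.1 FPKM in Col-0, with a log2 difference of 0.14 ± 0.18 (SE). SWEET6 was at 40.5, 38.9 and 58.7 FPKM in hda15-1 and at 31.8, 41.7 and 44.4 FPKM in Col-0. Groups of both genes overlapped, and neither passed (adjusted p = 1.000 each, limma). Of the 17 SWEET genes, 10 were listed at 0 in all 6 libraries, and the 4 described above together summed to 0.285 to 1.59 FPKM in hda15-1 and 0.355 to 0.791 FPKM in Col-0.

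In the STP list of 14 genes, 4 of which carry no symbol in the annotation, 7 averaged at least 1 FPKM and 5 were listed at 0 throughout. STP13, a hexose symporter induced by stress and pathogens, was at 29.7, 19.0 and 20.8 FPKM in hda15-1 and 27.1, 24.0 and 21.7 FPKM in Col-0, which puts it beside STP1 in level. STP7 followed at 12.2, 7.59 and 12.7 FPKM in hda15-1 and 10.3, 9.41 and 7.85 FPKM in Col-0. Both had overlapping groups. AT1G34580, with the smallest p of the other STP genes tested in limma, was at 4.17, 2.99 and 3.11 FPKM in hda15-1. In Col-0 it was at 3.93, 3.92 and 5.20 FPKM, a log2 difference of -0.28 ± 0.19 (SE), and its groups overlapped too. STP1 made up 31.5% to 34.1% of the summed STP level in hda15-1 and 23.7% to 27.5% in Col-0. None of the 6 other STP genes tested passed, and none had an unadjusted p under 0.05 in limma.

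**Figure D4:**
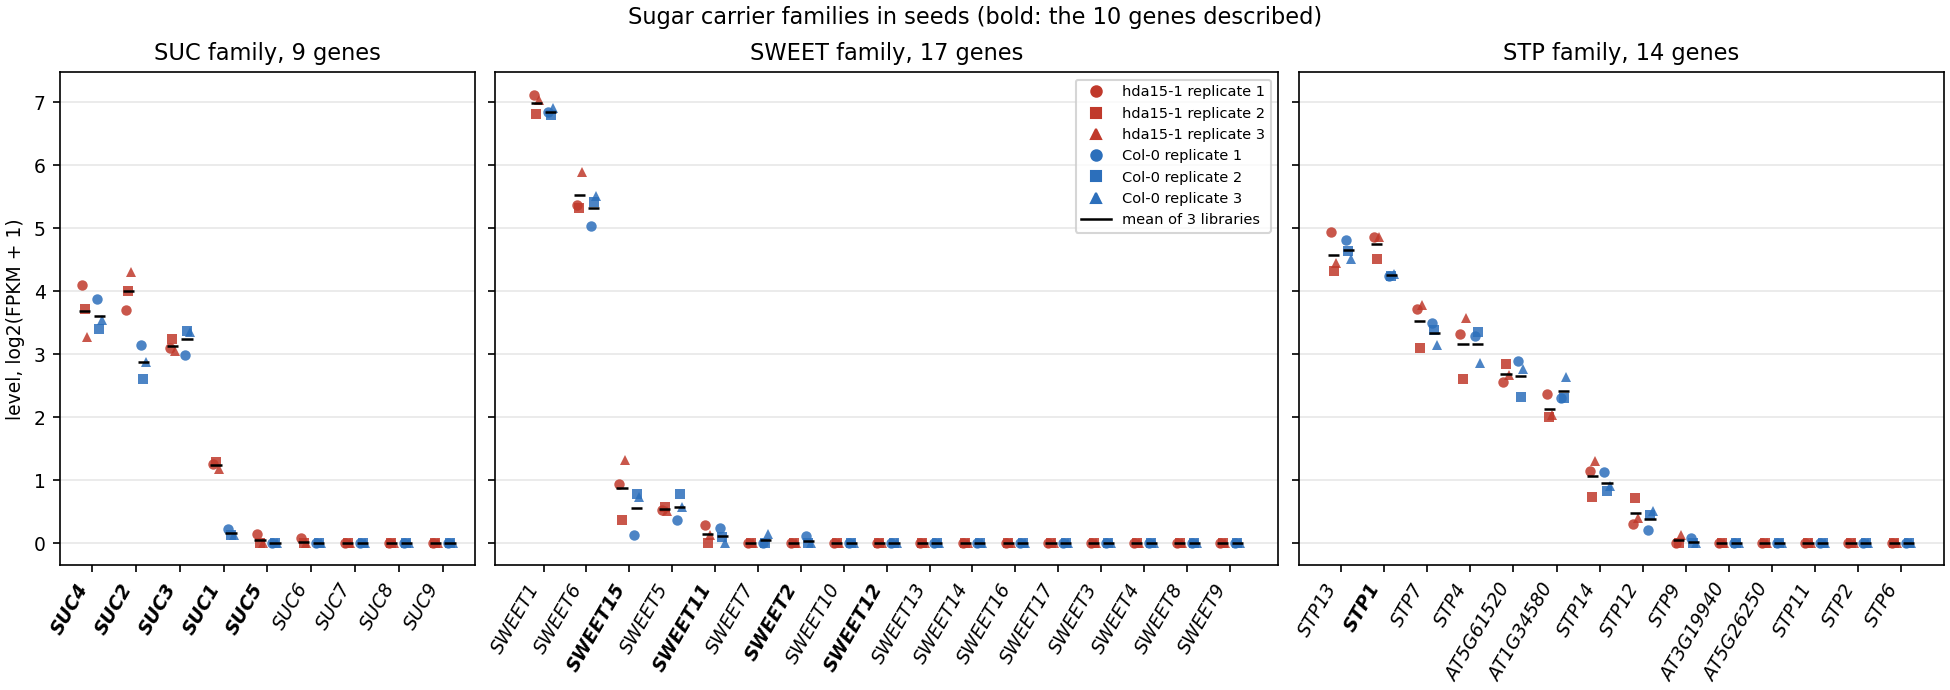
Levels as log2(FPKM + 1) of 9 SUC, 17 SWEET and 14 STP genes in each library, hda15-1 in red left of Col-0 in blue, ordered by mean level, with bold names for the 10 genes described. SWEET1 and SWEET6 stand above all other SWEET genes, and STP13 and STP1 lead the STP panel.

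Over all 48 other sugar and polyol carriers listed, the remaining SUC, SWEET and STP genes included, 19 were tested and none passed in limma, with 1 at an unadjusted p under 0.05, as had 644 of all 15045 genes tested. That gene was PMT5, a broad polyol and monosaccharide symporter, at 14.7, 16.5 and 13.9 FPKM in hda15-1 and at 11.0, 10.3 and 11.0 FPKM in Col-0, a log2 difference of 0.44 ± 0.16 (SE; adjusted p = 0.969, limma). Its groups did not overlap. PLT6, a relative annotated as PMT6, was lower without overlap, at 17.5, 15.5 and 18.7 FPKM in hda15-1 and at 23.2, 21.4 and 22.6 FPKM in Col-0 (adjusted p = 1.000, limma), as held for 3.43% of all genes tested. PGLCT, the plastid glucose carrier, was at 152.3, 165.7 and 192.6 FPKM in hda15-1 and 126.9, 144.8 and 151.9 FPKM in Col-0 (adjusted p = 1.000, limma), higher without overlap. MEX1 was also higher without overlap, at 8.80, 8.51 and 8.81 FPKM in hda15-1 and 7.73, 8.27 and 8.26 FPKM in Col-0. Of the 19 carriers, 3 were higher without overlap and 1 was lower, against 5.78% and 3.43% of all genes tested. The median log2 difference of these 19 carriers was 0.09, against 0.02 over all 15045 genes tested.

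**Figure D5:**
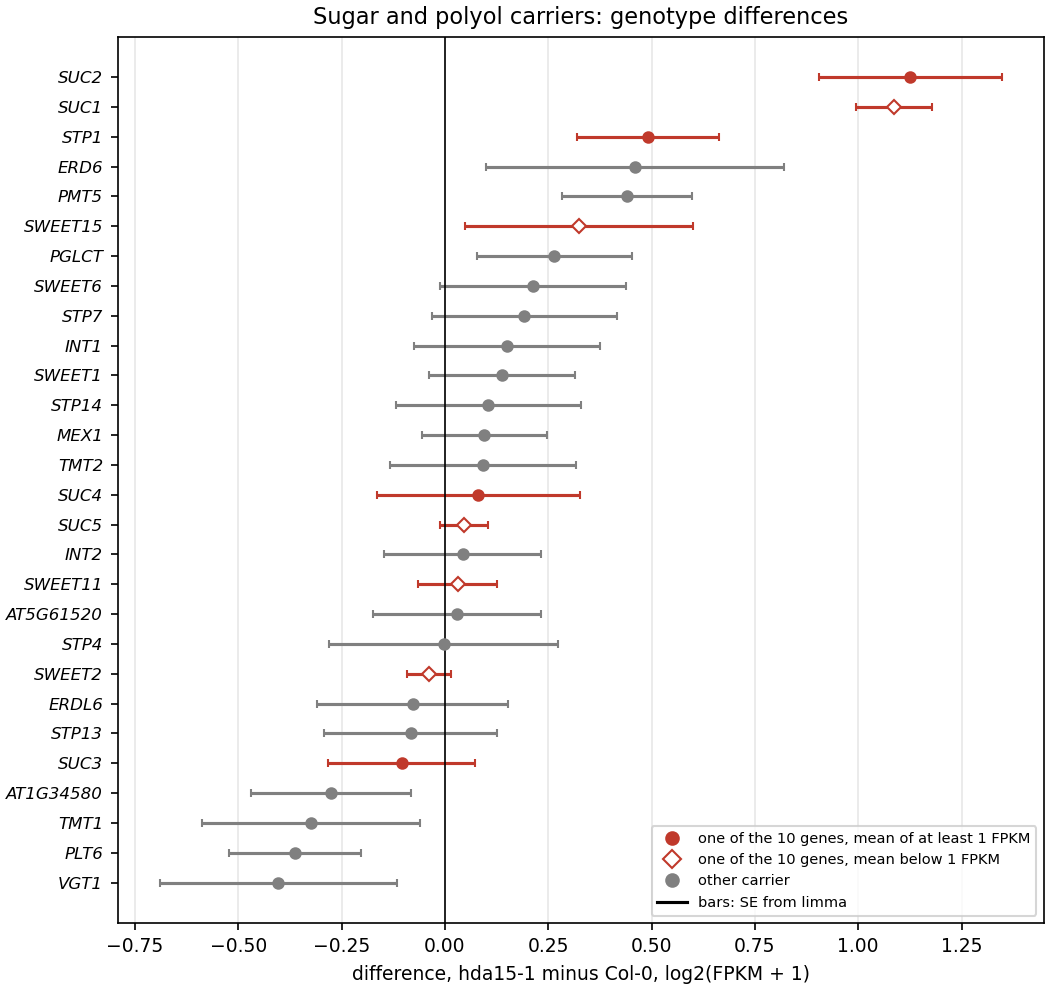
Difference of log2(FPKM + 1), hda15-1 minus Col-0, with its SE from limma for 9 of the 10 genes (red, open where the mean is below 1 FPKM) and 19 other carriers (grey). SUC2 at 1.13 and SUC1 at 1.09 lie farthest to the right, followed by STP1 at 0.49, and the grey points spread around 0.

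Enzymes that use or make the transported sugars were tested in the same way. Of 16 genes of sucrose breakdown, 3 were tested and none passed in limma, with 1, CWINV1, at an unadjusted p under 0.05, against 644 of the 15045 genes tested. CWINV1, a cell wall invertase that splits sucrose outside the cell into hexoses for STP carriers, was at 5.57, 2.64 and 3.58 FPKM in hda15-1 and at 2.03, 1.73 and 1.51 FPKM in Col-0. Its groups did not overlap, but its log2 difference of 0.80 ± 0.24 (SE) had an adjusted p of 0.781 in limma. SUS3, the sucrose synthase with the highest level, was at 171.6, 132.0 and 129.6 FPKM in hda15-1 and 74.5, 200.2 and 173.7 FPKM in Col-0, where replicate 1 was far below the others, and its log2 difference of 0.06 ± 0.36 (SE) turned to -0.51 among the libraries numbered 2 and 3.

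Of 8 sucrose synthesis genes, 4 were tested and none passed in limma or had an unadjusted p under 0.05. SPS2F, below the minimum, was at 0.169, 0.143 and 0.111 FPKM in hda15-1 and 0.586, 0.733 and 0.800 FPKM in Col-0. Its groups did not overlap, and its adjusted p was 0.0902 in limma with no filter. CINV2 of sucrose breakdown and the carrier TMT3, also below the minimum, were lower in hda15-1 without overlap, and neither passed with no filter. Lower without overlap held for 3.43% of genes above the minimum, a set without SPS2F, CINV2 and TMT3. The share among genes below the minimum was not computed. SPS1F, a sucrose phosphate synthase, was at 39.9, 50.9 and 43.3 FPKM in hda15-1 and 44.4, 41.2 and 45.2 FPKM in Col-0, and its small difference of 0.03 changed sign when libraries were scaled to the same upper quartile (-0.04) or sum (-0.07). SPS3F was at 17.1, 14.1 and 12.1 FPKM in hda15-1 and 24.5, 14.8 and 16.3 FPKM in Col-0. Of 6 hexokinase genes, 3 were tested and none passed in limma or had an unadjusted p under 0.05. HXK2, with the highest level of them, was at 17.4, 19.7 and 22.6 FPKM in hda15-1 and 18.5, 17.7 and 18.7 FPKM in Col-0. HXK1, a glucose sensor as well as an enzyme, was at 9.11, 12.0 and 12.7 FPKM in hda15-1 and 13.1, 8.48 and 8.77 FPKM in Col-0.

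Dark-inducible genes, which respond to sugar shortage in leaves, were listed because STP1 is known to be repressed by sugar. All 7 were tested, 1 passed on the higher side and 6 did not pass in limma. Of all 15045 genes tested, 0.199% passed on the higher side. DIN10, of the raffinose synthase family, was at 8.19, 4.10 and 3.48 FPKM in hda15-1 and at 0.300, 0.133 and 0 FPKM in Col-0. Its log2 difference was 2.39 ± 0.29 (SE; adjusted p = 0.0213, limma). With means of 5.26 FPKM in hda15-1 and 0.144 FPKM in Col-0, it met the minimum for testing only through the hda15-1 libraries. With no filter on the mean its adjusted p was 0.051 in limma and it did not pass. DIN10 no longer passed in 5 of 6 fits that omitted a library, at adjusted p-values of up to 0.1197 without Col-0 replicate 2, and passed without hda15-1 replicate 1 (0.0236). DIN6, the asparagine synthetase ASN1, was at 46.8, 54.6 and 31.2 FPKM in hda15-1 and 29.6, 65.1 and 81.8 FPKM in Col-0. DIN2, a beta-glucosidase, was at 1.89, 3.49 and 1.71 FPKM in hda15-1 and 1.12, 1.87 and 1.26 FPKM in Col-0. Over the 8 lists outside the 10 genes, 36 of 85 genes were tested, DIN10 alone passed, and the median log2 difference was 0.05. In either direction, 0.219% of the 15045 genes tested passed. The lists were drawn up with earlier results known, so nothing is read from these counts.

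The genes whose levels followed SUC2 and STP1 most closely over the 6 libraries were sought among the 10472 genes that averaged 5 FPKM or more. SUC2 had the largest absolute difference of the 10 on the log2(FPKM + 1) scale and STP1 the highest level. For SUC2, Pearson's r was 0.990 with AT5G03970 and 0.989 with AT5G41190. It was 0.987 with TCH4 (AT5G57560), a touch-induced xyloglucan endotransglucosylase, and Spearman's rho was 1 for all 3. TCH4 was at 9.34, 10.11 and 10.7 FPKM in hda15-1 and 7.83, 6.13 and 6.48 FPKM in Col-0. For STP1, Pearson's r was 0.984 with PPC1 (AT1G53310), a phosphoenolpyruvate carboxylase, with AT1G29980 and with AT3G14860, and Spearman's rho was 1, 0.771 and 1. PPC1 was at 46.7, 41.1 and 46.3 FPKM in hda15-1 and 37.7, 39.1 and 39.5 FPKM in Col-0. The 6 points share the split into genotypes and the library, and 157 genes had r above 0.9 with SUC2 and 106 with STP1, so these are descriptions of 6 libraries.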

How the data were processed

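Each library has its own deposited table of FPKM values, per the file headers. Per the submitters' processing notes, Bowtie 0.12.2, Cufflinks, Cuffdiff and the build TAIR10 were used, while roles, settings, annotation version, read length and strandedness are not stated in those notes. An exact 0 can be a failed estimate, although none of the 10 genes was at 0 in 1 library and above 5 FPKM in another. Whole reads were not recovered, and no count test was run; relative depths came from genes under 0.2 FPKM in both libraries compared, and precision of low genes is limited accordingly.

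Symbols, positions, promoters and coding sequences came from the RefSeq annotation and genome of TAIR10.1, matched by locus for 32538 rows. Protein sequences were not used here. Differences, hda15-1 minus Col-0, were computed on log2(FPKM + 1) with limma 3.58.1 in R 4.3.3, with variance trend, for the 15045 genes averaging 1 FPKM or more, two-sided, Benjamini-Hochberg adjusted over all genes tested, threshold 0.05. The fit was checked on simulated data. SEs of genes below the minimum came from the same fit with no filter, over 21626 genes. Since separate seed lots are not stated, the p-values reflect library-to-library spread that may be technical. The 10 genes and the lists were chosen with earlier results of these data known. Beside the 10 genes and HDA15, named genes were drawn from those of each list that passed, had among the smallest p or had the highest level. Markers and the genes closest in pattern were also named, and not every gene that met these rules was. SPS2F, CINV2, TMT3 and MEX1 were named in addition, after the data were seen, because their groups did not overlap. Alternatives covered pseudocount, filter, scaling, variance model, replicate block and libraries left out. For genes below the minimum the same were run with no filter, a choice made after the data were seen.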

Additional observations from a re-analysis of the deposited data

How the results depend on the processing

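SUC1, SUC2, SUC3, SWEET15 and STP1 kept the sign of their difference in each alternative in which they were fitted, while SUC4 and SWEET11 did not. SUC5 and SWEET2 were above 0 in only 1 library each and were not fitted without it, so their sign could not change. Across these alternatives SUC2 ranged from 0.98 to 1.41, STP1 from 0.40 to 0.61 and SUC1 from 1.06 to 2.79. SUC1 passed in 6 of its 13 alternatives. Besides fits without 1 library, it did not pass with equal sums, with the replicate block or in the 4 libraries numbered 2 and 3. SUC2 passed in 1 of its 15 alternatives, those same 4 libraries. Without single libraries, SUC1 ranged from 1.06 to 1.12, SUC4 from -0.12 to 0.29, SWEET11 from -0.05 to 0.10, SWEET15 from 0.10 to 0.58 and STP1 from 0.43 to 0.61. At a pseudocount of 0.1, differences of low genes grew to 2.79 for SUC1, 0.34 for SUC5, -0.29 for SWEET2 and 0.78 for SWEET15, and at 0.5 that of SUC1 was 1.60, as the smaller constant itself brings about. Scaling to equal upper quartiles or sums moved the median over all genes by -0.07 and -0.09.

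The 30 higher genes became 13 at a mean of at least 5 FPKM, 18 with equal sums and 73 among the 4 libraries numbered 2 and 3, where the 3 lower genes became 12. Without 1 library there were 8 to 31 higher and 3 to 5 lower genes. The 1 call among the other sugar genes, DIN10, was lost (0 calls) with no filter, at a mean of at least 5 FPKM, where it was not tested, with equal sums, and in 5 of the 6 fits without 1 library, which gave 0 to 1 calls. SUS3 was at -0.015 with equal upper quartiles, -0.040 with equal sums, -0.51 in the 4 libraries and -0.38 to 0.33 without 1 library. SPS1F was at -0.044 and -0.069 under the 2 scalings and -0.067 to 0.11 without 1 library, and STP13 at -0.27 to 0.042 without 1 library. Other causes were not tested.

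Same-numbered libraries did not deviate together, with r of -0.08, -0.11 and -0.16 over 15045 genes, so the replicate number was not taken to pair them, and no library correlated best with its own number. With the number as a replicate block, 13 genes were higher; the differences of the 10 genes are the same by construction. Read depth limits SUC1 in Col-0, SUC5 and the SWEET genes.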
